A study of Mus musculus with 10 samples.

Results

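The splicing factor genes described here are the genes whose symbol starts with Srsf and a digit, Hnrnp, Snrp, Sf3a or Sf3b, and 52 of the 24059 gene symbols in the count table met this rule. They comprised 11 SR protein genes, 20 hnRNP genes and 21 core snRNP genes, the last made up of 12 Snrp genes and 9 Sf3a or Sf3b genes. Lung RNA was sequenced from 10 female C57Bl/6 mice, 5 in the FO and 5 in the CO group, aged 14 weeks after 8 weeks on the diets. Both diets were high-fat and semipurified with added cholesterol and corn oil. The FO diet was enriched in menhaden fish oil, rich in n-3 fatty acids, and the CO diet in coconut oil, rich in saturated fat, together with olive oil. Each mouse gave 1 whole lung sample, flushed with PBS, after measurement of airway reactivity in both groups. The comparison asked whether the diet changed splicing factor mRNA in the lung. The samples held many cell types, so fewer cells of a type and less RNA per cell cannot be told apart.

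Introns are removed from pre-mRNA by the spliceosome, which is built from small nuclear ribonucleoproteins (snRNPs), each a small nuclear RNA with a ring of Sm proteins and particle-specific proteins. SR proteins carry domains rich in arginine and serine, bind exonic enhancers and help snRNPs to find splice sites, whereas hnRNPs coat the nascent RNA and often repress the sites they cover. Many SR and hnRNP genes also limit their own mRNA by splicing it into forms that are degraded, and counts per gene do not separate such forms from coding mRNA.

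Depth was low and uneven. Totals ranged from 229766 to 1124963 counts, of which Rn45s, the ribosomal RNA precursor, took from 21.8% to 87.0%, and between 45177 and 473254 counts per mouse fell on other genes. Levels are given as CPM, counts brought to a common library size after TMM scaling, and on this scale 3 counts were worth between 2.29 CPM in FO2 and 19.9 CPM in CO1. FO2 and CO5 stood apart from the other mice of their diets: Malat1, a nuclear noncoding RNA, took 8.53% and 6.15% of their counts outside Rn45s against at most 1.05% elsewhere, and small nucleolar RNA genes took 2.35% and 1.36% against at most 1.16%. Lung markers were present, with 6497 counts in all for Sftpc of alveolar type 2 cells and 6221 for Scgb1a1 of club cells, while Aqp5 of alveolar type 1 cells had no count. Summed neural markers stayed at or below 8.76 CPM in every mouse.

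The filter on low counts left 30 of the 52 splicing factor genes, among 2438 genes tested in all. These were 7 SR, 13 hnRNP, 6 Snrp and 4 Sf3 genes. No read was counted in any mouse for Hnrnpa1, Snrpn and Srsf12. Hnrnpa1 encodes an abundant repressor of splice sites, Snrpn an imprinted Sm protein used mainly in brain, and Srsf12 a little-studied SR protein. A count of 0 allowed a share of up to 0.000634% of the counts outside Rn45s in FO2 and up to 0.00664% in CO1, from counting error only. In the GENCODE annotation of GRCm38, 46.7% of the 50-base exon windows of Hnrnpa1 (chr15:103240432-103246692) also occurred in exons of 20 other genes, and 53.3% did not. For Snrpn (chr7:59982495-60140219) the shared part was 26.5%, and for Srsf12 (chr4:33208991-33233340) it was 0%. Whether shared sequence set these zeros was not tested.

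The other 19 genes that were not tested had counts but did not pass the filter, which works on counts relative to library size, Rn45s included. They were Srsf4, Srsf7 and Srsf10 among SR genes, Hnrnpa3, Hnrnpf, Hnrnph2, Hnrnph3, Hnrnpll and Hnrnpul1 among hnRNP genes, Snrpa, Snrpa1, Snrpd2, Snrpf and Snrpg among Snrp genes, and Sf3a2, Sf3a3, Sf3b3, Sf3b4 and Sf3b5 among Sf3 genes. Their totals over the 10 mice ran from 5 counts for Snrpf to 131 for Snrpd2. Snrpf, which encodes a Sm ring protein, shared 89.5% of its exon windows with other genes, overlapping Ccdc38 among them. Reads from such exons could be split between genes or left uncounted.

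The levels per kilobase of exon ranked the tested splicing factor genes in these lungs, and genes that were not tested have no place in this order. Sf3b2, a subunit of the SF3b complex that holds the branch site in the U2 snRNP, was highest at 60.7 ± 6.59 CPM per kb under FO and 58.5 ± 7.82 under CO (SD, n = 5 each). It was followed by Hnrnpa2b1, Hnrnpab and Hnrnpm, which averaged 54.6, 51.8 and 51.7 CPM per kb over the 10 mice. Hnrnpa2b1 varied so much between mice (SD of 44.4 CPM per kb in the FO group) that its place in this order is not fixed. The 3 highest SR genes were Srsf9 at 40.4, Srsf3 at 32.7 and Srsf2 at 30.6 CPM per kb. The 3 highest Snrp genes, Snrpd1, Snrpd3 and Snrpb, lay within 33.1 to 35.3 CPM per kb, a gap smaller than the SD of each. After Sf3b2, the Sf3 genes Sf3b6 and Sf3b1 averaged 36.0 and 11.1 CPM per kb. Srsf2 and Srsf3 shared 31.8% and 31.5% of their exon windows with other genes. Hnrnpab shared 23.8% and overlapped Phykpl, and Hnrnpm overlapped March2, so the levels of these 4 genes are uncertain. The same holds for other tested genes, among them Hnrnpk (25.6% shared, overlapping Rmi1), Srsf5 (23.6%) and Snrpc (16.7%).

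No splicing factor gene passed the test between the diets. With edgeR's quasi-likelihood test, 0 of 30 passed an unadjusted p of 0.05, the threshold of the study, against 2.91% of all genes tested, and none passed after Benjamini-Hochberg adjustment. The lowest p was 0.0727, for Snrpc. DESeq2 called 0 of 30 as well, against 2.54% of all genes. The FO and CO mice overlapped in CPM for each of the 30 genes, while 0.41% of all genes had groups that did not overlap. Among the 30 genes, 17 had a higher fitted level in the FO group and 13 a lower one, with a median log2 fold change (FO minus CO) of 0.03 against 0.0034 over all genes tested. The fit weighs mice by depth, and for Srsf9, Hnrnpm, Hnrnpdl and Sf3b1 the sign of the small fitted difference was opposite to that of the difference in mean CPM. The family medians were SR -0.11, hnRNP 0.05 and core snRNP 0.13. Scaling by library size alone moved the median of all genes to -0.55 and left the families at -0.24, 0.093 and 0.061 relative to it. Leaving out 1 mouse in turn gave SR medians of -0.20 (without FO4) to 0.022 (without FO1), hnRNP medians of -0.038 (without FO2) to 0.055 (without FO1) and core snRNP medians of 0.036 (without CO3) to 0.37 (without CO4). The hnRNP median was also below 0 without FO3, FO5 or CO4, without FO2 and CO5 together (-0.015), with limma-voom (-0.041) and over genes with 10 counts in every mouse (-0.041). The filter was rerun whenever a mouse was left out, so these medians do not all cover the same genes. Fits without 1 mouse held 6 to 9 SR, 13 hnRNP and 8 to 13 core snRNP genes, and the fit at 10 counts in every mouse held 9 hnRNP genes. The 95% interval of the difference lay within 1 log2 unit of zero, that is within a 2-fold change either way, for 24 of the 30 genes (80%), compared with 72.8% of all genes. The 6 with wider intervals were Srsf6, Hnrnpa2b1, Hnrnph1, Hnrnpl, Snrpc and Sf3a1. The intervals set the size of change that was detectable with these mice at this depth, with a median SE of 0.30 log2 units over the 30 genes. Their median SD of log2 CPM within a diet was 0.43, and the median for counting error alone was 0.29.

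**Figure D1:**
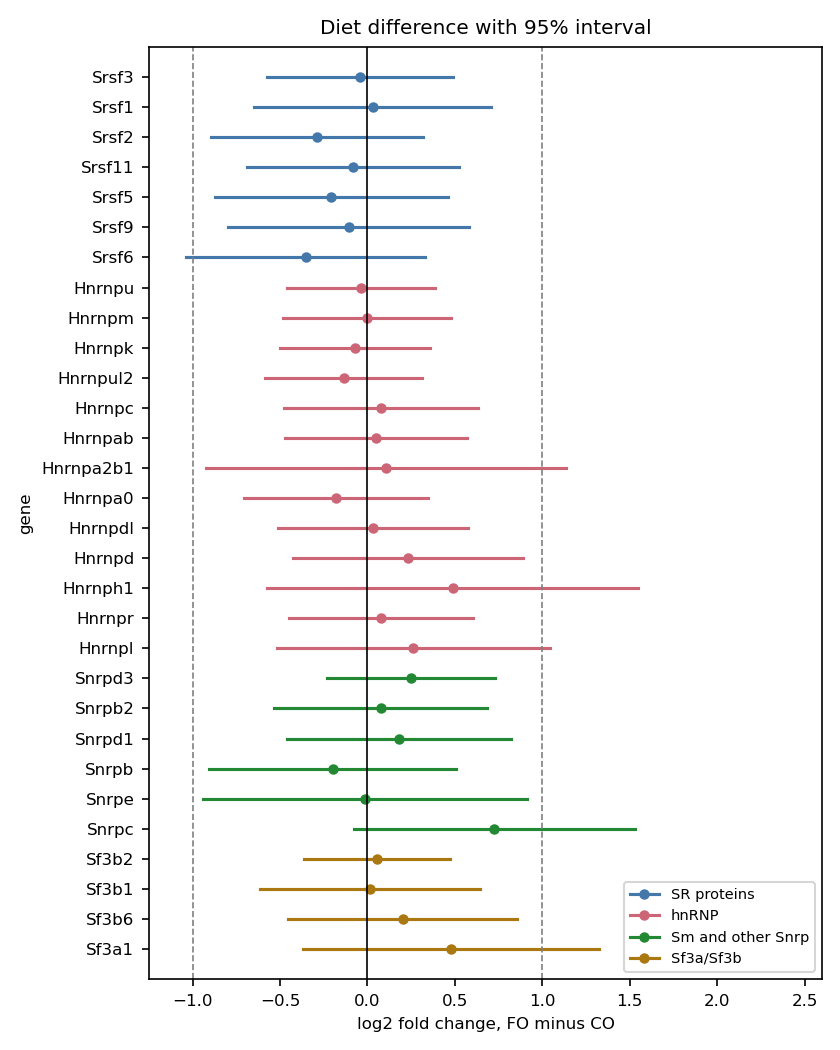
Log2 fold change (FO minus CO, x axis) of the 30 tested splicing factor genes (y axis, coloured by family), with the 95% interval from edgeR as a bar; dashed lines mark a change of 1 log2 unit. Every interval covers 0, and the widest are those of Hnrnph1 (-0.57 to 1.55) and Hnrnpa2b1 (-0.92 to 1.14).

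Among SR genes, 1 of the 7 tested had a higher fitted level in the FO group and 6 a lower one, with a median log2 fold change of -0.11. None passed the test, and the lowest p was 0.290. Srsf6, which controls alternative exons in many tissues, had the largest difference. Its FO mice had 20.7, 15.3, 25.8, 27.2 and 26.2 CPM and its CO mice 46.5, 32.0, 35.05, 21.0 and 21.0 CPM. The 3 highest CO mice lay above every FO mouse, and the other 2 fell within the FO range. The fitted difference was -0.35 ± 0.33 (log2, SE), with p = 0.290 and an exact permutation p of 0.183. Without FO2 the difference was -0.18.

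Srsf2 (SC35, chr11:116849901-116853094), the classical marker of nuclear speckles, had 49.5, 42.8, 90.3, 39.5 and 58.9 CPM in the FO mice and 86.4, 74.6, 65.7, 65.1 and 40.7 CPM in the CO mice. The single FO mouse above 60 CPM, FO3, was also the highest of all 10. The log2 fold change was -0.29, with a 95% interval of -0.90 to 0.32 and an exact permutation p of 0.357. Without FO3 the log2 fold change was -0.46. Srsf1 (chr11:88047373-88053755), the founding member of the family and a proto-oncogene, averaged 84.0 ± 21.6 CPM under FO and 80.8 ± 40.6 CPM under CO (SD, n = 5 each). Its CO mice split between 37.3 and 40.7 CPM in CO2 and CO5 and 88.2 to 126.3 CPM in the other 3, so the spread within one diet exceeded any gap between diets (log2 fold change 0.03, interval -0.65 to 0.71). Srsf3, the smallest SR protein, averaged 84.3 ± 23.1 CPM and 86.8 ± 16.9 CPM, and its log2 fold change was -0.04 with an interval of -0.58 to 0.49. Srsf9, the highest SR gene per kilobase, ran from 33.4 to 65.5 CPM in the FO mice and from 16.0 to 77.7 CPM in the CO mice. The value of 16.0 CPM, in CO2, rested on 3 counts.

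Among hnRNP genes, 8 of the 13 tested had a higher fitted level in the FO group and 5 a lower one, with a median log2 fold change of 0.05. The lowest p was 0.347, for Hnrnph1. Several of these genes were among the steadiest measured. Hnrnpu (chr1:178321108-178337797), a nuclear scaffold protein that binds RNA and chromatin, had 211.7, 300.3, 232.3, 249.5 and 252.1 CPM in the FO mice and 265.8, 213.1, 265.1, 223.6 and 311.1 CPM in the CO mice. Its SD of log2 CPM within a diet was 0.20, rank 2396 of 2438 genes from the widest, and its diet difference was -0.04 (interval -0.46 to 0.38). Hnrnpk, a binder of C-rich RNA, averaged 189.4 ± 34.0 CPM under FO and 201.7 ± 15.3 CPM under CO, with the same within-diet SD of 0.20. Hnrnpul2, a relative of Hnrnpu, had a within-diet SD of 0.21. Counting error alone gave 0.16, 0.18 and 0.19 for Hnrnpu, Hnrnpk and Hnrnpul2, which ranked 134, 187 and 277 of 2438 in mean CPM. The 95% intervals of these 3 genes reached no further than -0.58 and 0.38 log2 units.

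Hnrnpm, Hnrnpab and Hnrnpa0 also differed little between diets. Hnrnpm averaged 209.4 ± 53.6 CPM under FO and 206.4 ± 37.5 CPM under CO, a log2 fold change of -0.0022 with an interval of -0.48 to 0.48. Hnrnpab averaged 147.3 ± 40.4 and 141.1 ± 29.2 CPM. Hnrnpa0, a single-exon gene with no exon window shared with another gene, had the lowest hnRNP value at -0.18 ± 0.25 (log2, SE), from 93.8 ± 19.3 CPM under FO and 107.5 ± 25.2 CPM under CO, and ran from -0.34 without CO5 to -0.066 without FO2.

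Hnrnpa2b1 (chr6:51460932-51469894) and Hnrnph1 (chr11:50376990-50386528) behaved unlike the rest of the family. Hnrnpa2b1 encodes a core protein of hnRNP particles, and Hnrnph1 a binder of G-rich RNA. In the FO mice Hnrnpa2b1 had 100.1, 328.6, 116.1, 85.2 and 62.2 CPM, and in the CO mice 53.2, 101.2, 157.7, 35.7 and 290.1 CPM. FO2 and CO5 were far above all other mice, and the lower of the 2 was 1.84 times the highest of the other 8. Hnrnph1 had 49.5, 177.3, 116.1, 37.1 and 22.9 CPM in the FO mice and 26.6, 26.6, 57.0, 28.3 and 126.0 CPM in the CO mice. FO2 and CO5 were again the highest, with FO3 next at 116.1 CPM. The within-diet SD of log2 CPM was 1.03 for Hnrnpa2b1 and 1.04 for Hnrnph1, ranks 101 and 97 of 2438 from the widest, whereas counting error alone gave 0.26 and 0.36. Over the 8 other mice it was 0.70 and 0.74. The diet differences were 0.11 ± 0.49 and 0.49 ± 0.51 (log2, SE). Without CO5 the value for Hnrnph1 was 1.17 with an unadjusted p of 0.0321 (0.999 after Benjamini-Hochberg adjustment in edgeR, a fit that called 3.13% of all genes), and without FO2 it was -0.23. The sign and the call for Hnrnph1 thus changed with which of these libraries was kept.

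**Figure D2:**
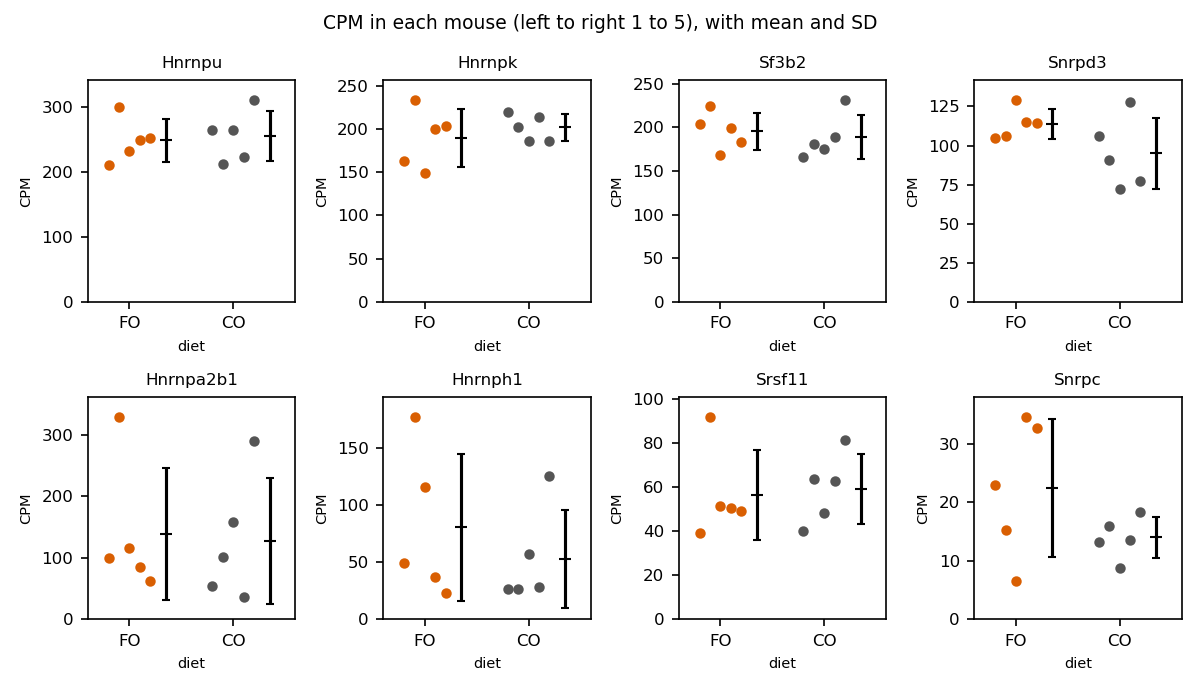
CPM (y axis) of 8 splicing factor genes in the 5 FO and 5 CO mice, mice 1 to 5 from left to right in each diet, with mean and SD as a dash and bar. Hnrnpu, Hnrnpk, Sf3b2 and Snrpd3 are steady, whereas Hnrnpa2b1 reaches 328.6 CPM in FO2 and 290.1 CPM in CO5.

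Among Snrp genes, 4 of the 6 tested had a higher fitted level in the FO group and 2 a lower one, with a median log2 fold change of 0.13. Snrpc, which encodes the C protein of the U1 snRNP, which steadies pairing with the 5′ splice site, had 23.0, 15.3, 6.5, 34.6 and 32.7 CPM in the FO mice and 13.3, 16.0, 8.8, 13.6 and 18.4 CPM in the CO mice. The 3 highest FO mice lay above every CO mouse, but FO3, where 3 counts were worth 19.4 CPM, was the lowest of all 10. The difference was 0.72 ± 0.38 (log2, SE; interval -0.07 to 1.53), with p = 0.0727 in edgeR (0.998 adjusted by Benjamini-Hochberg) and an exact permutation p of 0.302. Without FO3 the value was 0.81 with an unadjusted p of 0.0474, in a fit that called 2.46% of all genes. In mean CPM Snrpc ranked 2434 of the 2438 tested genes.

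Of the Sm ring genes, Snrpd3 (chr10:75517551-75537381) had 104.7, 106.2, 129.0, 114.9 and 114.6 CPM in the FO mice and 106.3, 90.6, 72.3, 128.1 and 77.4 CPM in the CO mice. The 3 lowest CO mice lay below every FO mouse, and the other 2 fell within the FO range (log2 fold change 0.25, interval -0.23 to 0.73, exact permutation p of 0.119). Its log2 fold change was 0.16 without CO3 and 0.43 without CO4. Snrpb averaged 37.1 ± 13.1 CPM under FO and 39.9 ± 12.1 CPM under CO, the lowest log2 value of the Snrp genes at -0.20 ± 0.34 (SE). Snrpd1 averaged 54.9 ± 20.4 and 43.5 ± 13.4 CPM. Snrpe varied most, from 14.5 to 55.7 CPM in the FO mice and from 10.95 to 66.5 CPM in the CO mice. Its within-diet SD was 0.79 log2 units, where counting error alone gave 0.41. The CO extremes rested on 5 counts in CO3 and 10 in CO1. Snrpa, which encodes the A protein of the U1 snRNP, was called when genes with any count were fitted. It had 7, 8, 1, 2 and 4 counts in the FO mice and 1, 0, 0, 2 and 1 in the CO mice. That fit gave a log2 fold change of 1.94 ± 0.94 (SE), with an unadjusted p of 0.0265 and an adjusted p of 0.905 in edgeR, and called 4.15% of all genes. No other splicing factor gene was called in it.

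Among Sf3 genes, the fitted difference was above 0 for all 4 tested, although the mean CPM of Sf3b1 was slightly lower under FO, with a median log2 fold change of 0.13 and a lowest p of 0.250. Sf3b2 (chr19:5273932-5295455) had 203.7, 223.9, 167.7, 198.9 and 183.4 CPM in the FO mice and 166.1, 181.1, 175.2, 189.0 and 231.0 CPM in the CO mice. It had the lowest within-diet SD of the 30 genes, 0.17 log2 units, rank 2423 of 2438 from the widest and no more than the 0.18 of counting error. Its difference was 0.05 with an interval of -0.37 to 0.47. Sf3b1 (chr1:54985169-55027481), the subunit that clamps the branch site and is often mutated in myelodysplasia, averaged 68.5 ± 32.0 CPM under FO and 69.0 ± 16.2 CPM under CO. Sf3b6, a small subunit next to the branch-site adenosine, averaged 44.0 ± 6.15 and 40.9 ± 20.2 CPM, with a fitted value of 0.20 that ran from 0.036 without CO3 to 0.37 without CO1. Sf3a1, a subunit of the SF3a complex, had the largest value at 0.48 ± 0.40 (log2, SE). Its FO mice had 35.7, 37.4, 45.2, 9.88 and 39.3 CPM and its CO mice 13.3, 5.33, 17.5, 30.4 and 28.9 CPM. FO4 was below 4 of the 5 CO mice, and the other 4 FO mice were above all of them (exact permutation p of 0.175). The values of CO1 and CO2 rested on 2 and 1 counts, in libraries where 3 counts were worth 19.9 and 16.0 CPM. Without FO4 the difference was 0.74.

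Most of the SF3a and SF3b promoters that were found had a sequence feature in common that the choice by symbol did not use. RefSeq promoters of GRCm38.p6, from 250 bases before to 50 after the first listed start, were found for 46 of the 52 genes, 7 of them Sf3 genes. The letters CCGGAAG, the core recognised by ETS family factors, were searched on both strands together with CCAAT and TATAAA, a choice made after results of these data were known. CCGGAAG occurred in 6 of the 7 Sf3 promoters (85.7%), in 40% of Snrp, 36.4% of SR and 11.1% of hnRNP promoters, compared with 18.1% of the 1890 tested genes with a promoter and 9.12% of all 27025 promoters. CCAAT occurred in 66.7% of hnRNP promoters against 35.9% of those of tested genes and 37.9% of all promoters. TATAAA occurred in 13.0% of splicing factor promoters, against 8.10% for tested genes and 14.2% for all promoters. The 6 Sf3 windows are shown because they carry this feature, each on the strand that reads CCGGAAG, with these letters in capitals. Counted in the direction of the gene, the matched stretches shown start between 7 and 229 bases before the start site. Sf3b6 had 2 matches, and only the first found is shown. They are a description of sequence, and Sf3b1 had no such match.
Sf3a1 (chr11:4160336-4160364, plus strand): agagggcgggaCCGGAAGtgctcccgcgg
Sf3a2 (chr10:80798648-80798676, plus strand): cgcctttgctcCCGGAAGggatcgcttcg
Sf3a3 (chr4:124714760-124714788, minus strand): ttccgcgtgtcCCGGAAGtgtcttggggg
Sf3b2 (chr19:5295451-5295479, minus strand): ggattacgcaaCCGGAAGtttctggaagt
Sf3b3 (chr8:110847015-110847043, plus strand): acctcgcaagcCCGGAAGcgcccaccggg
Sf3b6 (chr12:4817527-4817555, plus strand): cggtccgcaatCCGGAAGcgttctggagc

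As whole families, the SR, hnRNP and core snRNP genes took similar shares of the counts in both diets. The 52 genes together took 0.977 ± 0.074% of the counts outside Rn45s under FO and 0.948 ± 0.049% under CO (SD, n = 5 each). SR genes took 0.145 ± 0.023% and 0.153 ± 0.024%, hnRNP genes 0.566 ± 0.058% and 0.563 ± 0.029%, and core snRNP genes 0.265 ± 0.047% and 0.232 ± 0.043%. The groups overlapped in each family. For every 100 hnRNP counts there were 25.8 ± 4.3 SR counts under FO and 27.3 ± 5.0 under CO, and 47.5 ± 11.2 and 41.5 ± 9.2 core snRNP counts. The ratio of SR to core snRNP counts differed most, at 55.6 ± 9.2 SR counts per 100 core snRNP counts under FO and 66.8 ± 11.7 under CO, and the FO range (41.9 to 64.4) still overlapped the CO range (56.1 to 86.8).

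**Figure D3:**
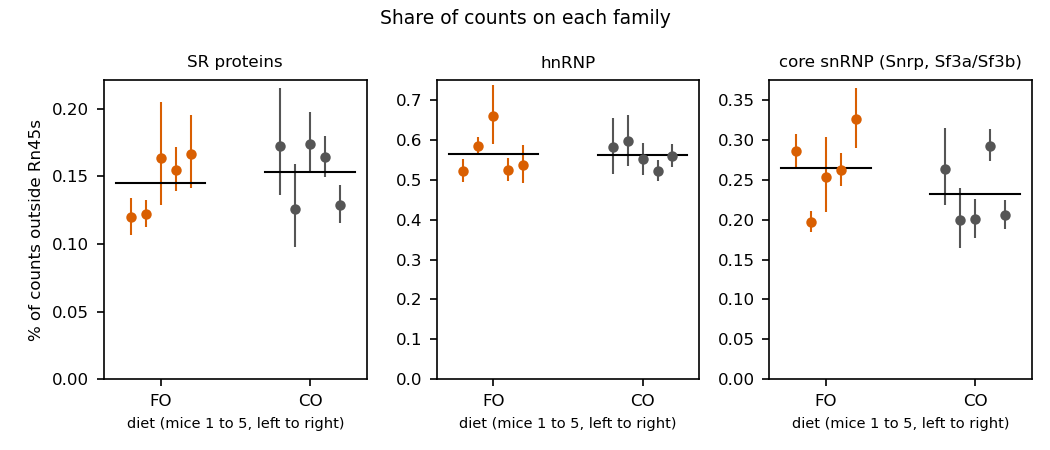
Share of the counts outside Rn45s (y axis, percent) on SR, hnRNP and core snRNP genes in each FO and CO mouse, mice 1 to 5 from left to right; bars are exact 95% binomial intervals, which cover counting error only, and lines are group means. FO and CO mice overlap in every panel.

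FO2 and CO5 deviated together from the other mice over all genes tested, a pattern across diets that was described after its values were seen. The splicing factor genes are given here beside the share over all genes. FO2 and CO5 were the 2 highest of the 10 mice for 6 of the 30 tested genes (20%), against 12.4% of all genes tested. These were Hnrnpa2b1, Hnrnph1, Hnrnpu, Srsf5, Srsf11 and Sf3b2. Srsf11, an SR-related protein, had 91.7 CPM in FO2 against 39.1 to 51.6 CPM in the other FO mice, and 81.4 CPM in CO5 against 39.9 to 63.9 CPM in the other CO mice. Srsf5 had 64.2 and 86.6 CPM in FO2 and CO5, against at most 58.1 CPM elsewhere. Only Hnrnpa2b1 and Hnrnph1 exceeded the mean of the other mice of their diet by more than 1 log2 unit in both, by 1.85 and 1.91 for Hnrnpa2b1 and by 1.83 and 1.84 for Hnrnph1, that is 6.67% of the 30 genes against 4.92% of all genes. Lower values in both libraries were also common: 15 of the 30 genes (50%) were lower in both and 10 higher in both, against 33.4% and 37.7% of all genes. By family, 4 of 7 SR, 6 of 13 hnRNP, 4 of 6 Snrp and 1 of 4 Sf3 genes were lower in both, and no Snrp gene was higher in both. Across the 30 genes, which share the 2 libraries and are not replicates, the deviations of FO2 and CO5 correlated with r = 0.83, and across all 2438 genes with r = 0.66.

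The share of hnRNP counts on Hnrnpa2b1 and Hnrnph1 together was 23.9% in FO2 and 22.0% in CO5 and ran from 4.16% to 13.0% in the other 8 mice. With these 2 genes set aside, there were 29.1 ± 3.1 SR counts per 100 other hnRNP counts under FO and 30.4 ± 5.0 under CO. The high Malat1 share of FO2 and CO5 moved with this pattern, as did summed cardiac and alveolar type 2 markers, and their part in it was not tested. All 4 of 4 cardiac markers had counts, and their sum was 200.2 CPM in FO2 (26.2 to 91.4 CPM in the other FO mice) and 129.9 CPM in CO5 (13.3 to 76.7 CPM in the other CO mice). Myh6 gave most of this sum (127.6 CPM in FO2 and 86.6 CPM in CO5), while Actc1 was higher in FO1 and FO4 than in FO2 and higher in CO3 than in CO5, and Tnnt2 was as high in FO3 (51.6 CPM) as in FO2 (50.4 CPM). All 4 of 4 alveolar type 2 markers had counts, and their sum was 3029 CPM in FO2 (1437 to 1968 CPM in the others) and 2474 CPM in CO5 (857.7 to 1801 CPM in the others), most of it from Sftpc and Sftpa1, while Sftpb and Lamp3 were higher in CO2 than in CO5. No other marker sum was the highest of its diet in both mice, and some were low. Alveolar type 1 markers summed to 240.7 CPM in FO2 (270.5 to 447.6 CPM in the other FO mice) and 245.4 CPM in CO5 (206.0 to 697.0 CPM in the other CO mice). Club markers summed to 1123 CPM in FO2 (1092 to 1902 CPM in the others) and 884.6 CPM in CO5 (958.4 to 2432 CPM in the others). Neither the library kit nor the sequencer of each mouse is given in the sources used here.

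**Figure D4:**
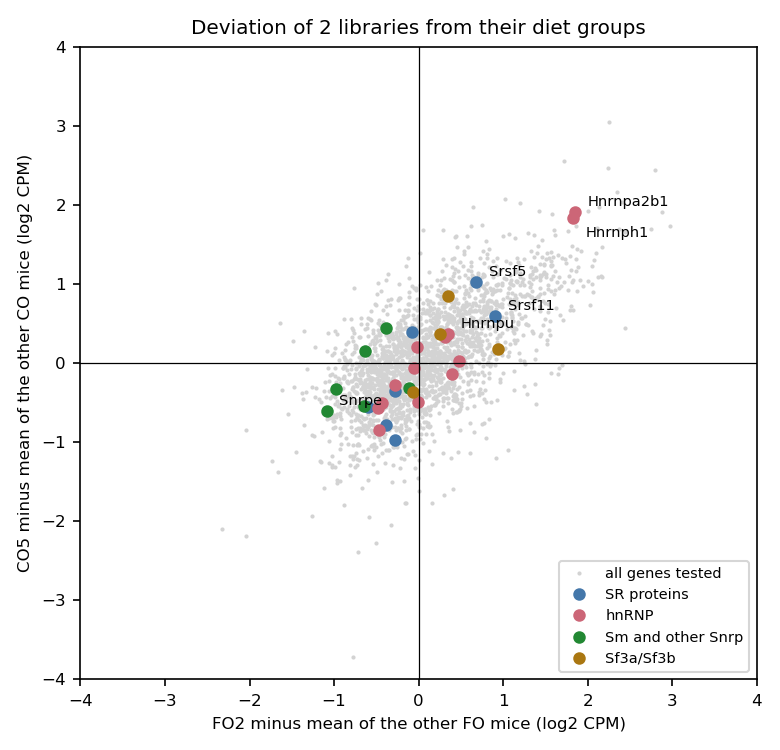
Log2 CPM of FO2 minus the mean of the other FO mice (x axis) against that of CO5 minus the mean of the other CO mice (y axis) for all 2438 tested genes (grey; 3 lie outside the axes) and the 30 splicing factor genes (coloured by family). Hnrnpa2b1 and Hnrnph1 lie near 1.8 on both axes, and the 6 Snrp genes lie below 0 for FO2.

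**Figure D5:**
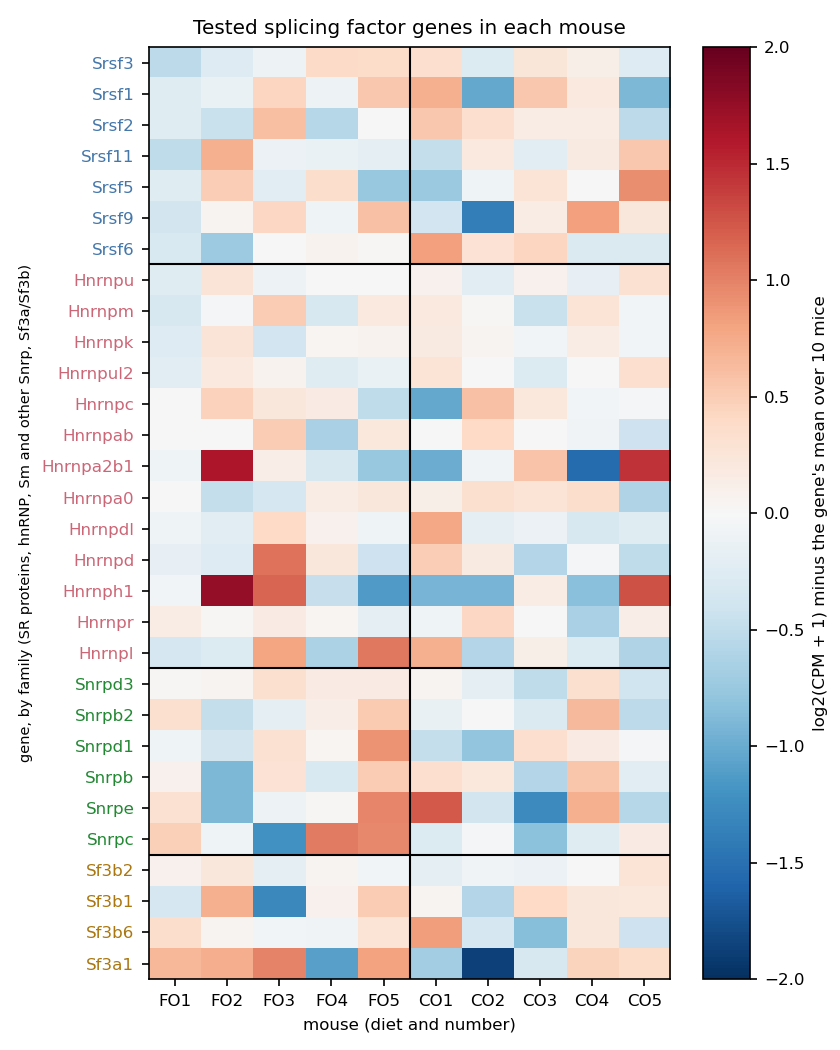
Log2(CPM + 1) of each tested splicing factor gene (y axis, by family) in each mouse (x axis) minus that gene's mean over the 10 mice. FO2 and CO5 share high values for Hnrnpa2b1 and Hnrnph1, and no block of genes separates FO from CO.

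Other genes of the splicing machinery were taken from 4 lists: 75 further core spliceosome genes, 61 splicing regulators, 10 SR protein kinases and importers and 16 snRNP assembly factors. Of these 162 genes 67 were tested, and 0 were called by edgeR against the 2.91% of all genes. The lowest p was 0.0599, for Clk3, a kinase of SR proteins, which averaged 20.2 ± 4.3 CPM under FO and 31.8 ± 12.9 CPM under CO. The median log2 fold changes were -0.06 for core genes, -0.01 for regulators, -0.24 for kinases and 0.33 for assembly factors, the last from 3 tested genes. FO2 and CO5 were the 2 highest mice for 24 of the 67 genes, against 302 of all 2438 genes (12.4%). Against 4.92% of all genes, 11 of the 67 (16.4%) exceeded 1 log2 unit in both. They included Srek1, a splicing regulator with SR-rich domains (308.0 and 263.8 CPM against at most 124.9 CPM elsewhere), Clk1, another SR protein kinase (72.6 and 122.1 CPM against at most 34.6 CPM) and Snrnp70, the U1-70K protein (167.4 and 157.5 CPM against at most 91.7 CPM).

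The count of other splicing genes depended on FO2. Without this mouse, 7 of 58 tested genes were called, all lower in the FO group, and the same fit called 7.26% of all genes. They were Cdk11b, Dhx15, Prpf38b, Sart3, Sfpq, Srek1 and Srrm2, with log2 values between -1.09 for Srek1 and -0.65 for Cdk11b. With FO2 and CO5 both left out, 3 of 51 were called (Cdk11b, Dhx15 and Sart3) against 3.93% of all genes. None of the SR, hnRNP or core snRNP genes was called in either fit. These 7 genes, and Srek1, Clk1 and Snrnp70 above, were picked with their values in view.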

How the data were processed

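Libraries were prepared from total lung RNA with TruSeq RNA v2 or riboZero and read single-end on 1 of 3 types of sequencer. The authors deposited raw counts per gene symbol, obtained with STAR 2.4.0f1 against mm10, SAMtools 0.1.19 and htseq-count. Strand setting and annotation are not given in the sources used here. Diets were taken from sample titles, and each mouse was 1 sample.

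Counts were analysed with edgeR 4.0.16 in R 4.3.3 (TMM, default filter at 10 counts and 15 in total, quasi-likelihood test, Benjamini-Hochberg adjustment over the 2438 genes kept). CPM used the filtered counts, Rn45s included, and log2 CPM a prior count of 2. A gene was called at an unadjusted p-value under 0.05. Single genes were also compared by a two-sided exact permutation test of mean log2 CPM over 252 splits, whose smallest p is 0.00794. The code was tested on simulated data. Genes were named when called, when their groups did not overlap, as the 3 highest per kilobase or the extremes in log2 fold change of each family, when not testable, and as 9 fixed genes (Srsf1, Srsf2, Srsf3, Hnrnpa1, Hnrnpa2b1, Hnrnpu, Snrpn, Snrpb and Sf3b1). Other genes were picked with their values in view. The gene groups and lists were chosen with earlier results of these data known.

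Exon lengths came from the GENCODE basic annotation of GRCm38, the build named mm10, and promoters from RefSeq. The 50-base exon windows were taken from the full set of GENCODE transcript sequences. Those of a gene's protein-coding transcripts were looked up, on either strand, in the transcripts of all other genes. Alternatives were DESeq2 1.42.0, its scaling factors, library size alone, 2 other filters, robust estimation, limma-voom (limma 3.58.1), removal of Rn45s, a block on mouse number and leaving out mice.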

Additional observations from a re-analysis of the deposited data

Results flagged for a closer look

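In each diet group of 5 mice, the highest and the lowest mouse were compared with the rest for each tested splicing factor gene and for 4 shares of counts (SR, hnRNP, core snRNP and all 52 genes). In 4 of 68 groups the gap to the nearest mouse was large relative to the whole range, and chance alone gives about 1 in 20. Hnrnpa2b1 stood at 328.6 CPM in FO2 against 62.2 to 116.1 CPM in the other FO mice. Srsf11 stood at 91.7 CPM in FO2 against 39.1 to 51.6 CPM. Hnrnpdl, a relative of Hnrnpd, stood at 126.3 CPM in CO1 against 58.8 to 67.9 CPM in the other CO mice, and CO1 was the mouse with the fewest counts outside Rn45s. Sf3a1 stood at 9.88 CPM in FO4 against 35.7 to 45.2 CPM in the other FO mice.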

How the results depend on the processing

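The count of 0 called splicing factor genes was unchanged in 17 of 20 alternatives and was 1 in the other 3, with genes of any count (Snrpa), without FO3 (Snrpc) and without CO5 (Hnrnph1), so that leaving out 1 mouse gave 0 to 1. The count of other splicing genes was 0, and became 1 with library size alone (Snrnp27), 1 with genes of any count (Tra2a), 1 with Rn45s removed (Tra2a), 2 with limma-voom (Dhx15 and Sart3) and 3 without FO2 and CO5 together. Leaving out 1 mouse gave 0 to 7, with 7 without FO2 and 1 without CO1 (Clk3). Scaling by library size alone shifted the median of all genes to -0.55, with SR genes at -0.79, hnRNP genes at -0.46 and core snRNP genes at -0.49, which relative to all genes were -0.24, 0.09 and 0.06. Under this scaling the values of Srsf1 (-0.55), Hnrnpa2b1 (-0.20), Hnrnpab (-0.46), Snrpd1 (-0.42), Snrpd3 (-0.47), Sf3b2 (-0.52), Sf3b6 (-0.42), Sf3b1 (-0.52) and Sf3a1 (-0.13) were below 0, which the shift of all genes gives by construction, and relative to the median of all genes 19 of 19 named genes kept their sign. With limma-voom the sign changed for Hnrnpa2b1 (-0.061), Hnrnpab (-0.11) and Sf3b1 (-0.14), with genes of any count for Hnrnpm (0.015), and without FO2 and CO5 for Srsf1 (-0.12), Hnrnpab (-0.054) and Sf3b1 (-0.19). With the replicate block Srsf9 (0.10) and Sf3b1 (-0.040) changed sign and 0 splicing factor genes were called. Mice with the same number did not deviate together (mean r = -0.12, none of 5 pairs over 0.1). With only 5 pairs this cannot show whether the numbers paired the mice. Leaving out 1 mouse gave family medians of -0.20 to 0.022 (SR), -0.038 to 0.055 (hnRNP) and 0.036 to 0.37 (core snRNP). The filter was rerun in each of these fits, so the genes behind a median could differ. A range for a single gene covers only the fits in which that gene was tested. Snrpc was tested in 13 of the 20 alternatives and Srsf6 in 16. Where leaving out 1 mouse changed a sign, the values ran from -0.28 to 0.20 for Srsf9, -0.20 to 0.080 for Srsf3, -0.17 to 0.20 for Srsf1, -0.58 to 0.72 for Hnrnpa2b1, -0.081 to 0.17 for Hnrnpab, -0.15 to 0.087 for Hnrnpm, -0.23 to 1.17 for Hnrnph1, -0.041 to 0.31 for Snrpd1, -0.35 to 0.044 for Snrpb, -0.0027 to 0.15 for Sf3b2, -0.22 to 0.12 for Sf3b1 and -0.12 to 0.053 for Hnrnpu. Without a sign change they ran from -0.46 to -0.20 for Srsf2, -0.50 to -0.18 for Srsf6, -0.34 to -0.066 for Hnrnpa0, 0.16 to 0.43 for Snrpd3, 0.63 to 0.81 for Snrpc, 0.036 to 0.37 for Sf3b6 and 0.33 to 0.74 for Sf3a1. None of these genes was called in the main comparison, and the causes were not tested. Depth limits what could be seen: 3 counts were worth up to 19.9 CPM, more than the mean level of Snrpc.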
